A study of Mus musculus with 8 samples.

Results

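The genes described here are the protein-coding mouse genes with symbols from Zfp600 to Zfp999, which encode C2H2 zinc-finger proteins, many of them with a KRAB domain. Members were taken by symbol, and the table of gene levels held 182 of them among 46073 gene identifiers. The libraries came from 3T3L1 cells, a mouse preadipocyte line that becomes fat-storing when given dexamethasone, IBMX and insulin. Total RNA, after ribosomal RNA depletion, was sequenced from 2 libraries in each of 4 groups: Ddx6-KO at day 2, Ddx6-KO at day 0, TOM at day 2 and TOM at day 0 of that induction. The days follow the sample titles, whereas the treatment note gives harvest at 2 days of induction for every sample, those titled day 0 included, so what day 0 stands for is not settled by the labels. The paper describes its RNA-seq as taken before and after induction, which goes with the titles. Ddx6-KO cells carried a lentivirus with Cas9 and a guide to Ddx6, a DEAD-box RNA helicase that P-bodies need in order to form. TOM cells, the mock line, carried the same kind of lentivirus with a guide to tdTomato, so Cas9 was in both. Puromycin selection and cloning from single cells followed, which makes each line a clone, and a property of a clone cannot be told apart from loss of Ddx6. The labels do not say whether the 2 libraries of a group had cultures of their own, and the p-values reflect no more than the spread between these libraries, which may be technical.

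A C2H2 zinc finger is a short loop of protein that a zinc ion holds together through a pair of cysteines and a pair of histidines, and fingers in a row read a stretch of DNA. The KRAB domain recruits Trim28 (KAP1), which brings Setdb1, a histone methyltransferase, and such proteins are best known for silencing transposable elements. Their genes lie in tandem clusters that expanded by duplication in rodents, and mRNAs of this class were found enriched in P-bodies of human cells.

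A pattern for the KRAB domain was found in the translated coding sequence of 129 of the 182 genes. The median number of C2H2 fingers was 11, with 0 in 7 genes and 33 at most. Base composition set the family apart from other coding genes as a description: the median GC content of the coding sequence was 42.4% in the 139 members whose level was tested and 52.8% over 12101 tested protein-coding genes. In the 162 members with 3 or more fingers, the fingers took up a median of 56.8% of the coding sequence, and their GC content had a median of 41.0%, against 42.9% for the rest of the coding sequence. It was lower in the finger part in 117 of them. Neighbouring fingers were joined by a link of exactly 7 residues in 1564 of 1757 cases (89.0%). The repeat is shown here as it stands in the genome for 3 genes whose level differed between the groups, each from the first cysteine codon of a finger to the end of its link (84 bases, GRCm38, written along the gene's strand), with the codons of the 7-residue link in capitals.
Zfp970, unit 7 of 13, chr2:177475535-177475618, plus strand: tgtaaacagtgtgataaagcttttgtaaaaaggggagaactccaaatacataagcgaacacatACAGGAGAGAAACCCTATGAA
Zfp791, unit 7 of 12, chr8:85110136-85110219, minus strand: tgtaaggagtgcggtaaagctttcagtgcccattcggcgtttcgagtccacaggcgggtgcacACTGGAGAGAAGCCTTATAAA
Zfp963, unit 3 of 4, chr8:69742827-69742910, minus strand: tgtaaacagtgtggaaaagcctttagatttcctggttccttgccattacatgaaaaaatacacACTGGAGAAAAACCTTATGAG
GC content was 36.9% in the units of Zfp970 and Zfp963 and 52.4% in that of Zfp791. Such repeats make reads hard to place: 42 members, 28 of them tested, shared at least 10% of their 100-base stretches with another gene, and their values are uncertain on that account. Genes on the other strand overlapped 63 members and genes on the same strand 40, and the sources used here do not say whether counting was by strand.

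Promoters of the family were read from RefSeq (GRCm38.p6) as windows of 300 bases, 250 before the start and 50 after it. There were 183 windows for 154 members and none for the other 28. The CCAAT box (letters CCAAT, either strand) stood in 56.3% of the member windows and in 37.4% of all 32851 windows. GC boxes (GGGCGG, either strand) stood in 41.5% against 35.7%, and TATAAA in 4.92% against 13.6%. Window GC content was close, with medians of 53.3% and 52.7%. A word chosen after looking at the windows, GTCACTCA, stood in 13.7% of member windows and in 1.47% of all windows, and CCAATCAG, chosen in the same way and overlapping the CCAAT box, in 22.4% against 4.10%. The 2 together, GTCACTCA with CCAAT at most 30 bases after it, stood in 10.4% against 0.314%, in 16 members. Promoter windows of 3 members that were higher at day 2 than at day 0 in Ddx6-KO libraries are shown, 2 with this layout and 1 without it, plus strand, with these words and boxes in capitals.
Zfp970, chr2:177464492-177464791: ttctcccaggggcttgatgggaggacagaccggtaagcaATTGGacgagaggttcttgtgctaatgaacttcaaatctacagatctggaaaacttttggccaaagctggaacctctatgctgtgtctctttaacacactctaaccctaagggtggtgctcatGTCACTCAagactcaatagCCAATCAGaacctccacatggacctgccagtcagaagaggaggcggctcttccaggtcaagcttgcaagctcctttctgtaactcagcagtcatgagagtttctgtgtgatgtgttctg
Zfp932, chr5:109996260-109996559: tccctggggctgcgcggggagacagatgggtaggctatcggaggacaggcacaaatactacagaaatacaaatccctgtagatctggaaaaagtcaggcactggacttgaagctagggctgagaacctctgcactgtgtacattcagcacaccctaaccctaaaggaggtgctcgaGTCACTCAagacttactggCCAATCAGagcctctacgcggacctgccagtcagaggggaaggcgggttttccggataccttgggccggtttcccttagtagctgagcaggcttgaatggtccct
Zfp943, chr17:21962309-21962608: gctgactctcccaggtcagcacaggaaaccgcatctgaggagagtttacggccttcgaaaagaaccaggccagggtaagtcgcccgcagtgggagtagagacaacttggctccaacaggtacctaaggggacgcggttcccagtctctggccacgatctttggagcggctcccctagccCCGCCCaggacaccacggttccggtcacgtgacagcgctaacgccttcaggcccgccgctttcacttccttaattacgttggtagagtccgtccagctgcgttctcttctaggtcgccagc
In Zfp970 the capitals mark a CCAAT box read on the other strand at -211 to -207 from the start, GTCACTCA at -88 to -81 and CCAATCAG at -69 to -62. In Zfp932 they mark the same 2 words at -74 to -67 and -55 to -48, again with 11 bases between GTCACTCA and CCAAT. Zfp943 holds neither word, and its capitals mark a GC box on the other strand at -71 to -66. Its window shares 194 bases with that of Zfp942, which is read in the opposite direction, and Zfp758 and Zfp944 form another such pair (162 bases). The median log2 difference between day 2 and day 0 in Ddx6-KO libraries was 0.32 in the 71 tested members with a CCAAT box, 6 of them called, and 0.34 in the 50 without, 5 of them called. For GTCACTCA it was 0.52 in the 16 with the word (2 called) and 0.31 in the 105 without (9 called), and for GTCACTCA followed by CCAAT it was 0.54 in 11 (2 called) and 0.32 in 110 (9 called). CCAATCAG went the other way, with 0.20 in the 26 members that hold it (5 called) and 0.35 in the 95 others (6 called). Over all tested genes, 4.80% were called higher in this comparison. These medians and counts are descriptions of few genes, with no test, of words chosen after looking. A match is a description of the letters and no sign of a bound factor.

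Levels are FPKM, the fragments of a gene scaled by transcript length and by library size. Approximate library sizes were estimated in M fragments (1 M is 1e+06). The 1st percentile of nonzero FPKM times transcript length in kb, over single-transcript genes longer than 1500 bases, was taken as 1 fragment. For Ddx6-KO the sizes were 1.45 and 2.44 at day 2 and 5.55 and 3.48 at day 0. For TOM they were 2.40 and 2.64 at day 2 and 20.2 and 3.28 at day 0, where day 0 library 1 stood apart. Fragment numbers given here rest on these estimates and are no counts. A tested member had a median of 19.9 to 185 fragments per library, so the less deep libraries carry a larger counting error. Within-group correlations of log2(FPKM + 1) across genes were 0.888 for Ddx6-KO at day 2 and 0.941 to 0.950 for the other 3 groups. Ddx6 itself had 50.0 and 43.0 FPKM in Ddx6-KO and 28.8 and 28.4 FPKM in TOM libraries at day 2, and 27.2 and 31.9 FPKM in Ddx6-KO and 11.3 and 19.9 FPKM in TOM libraries at day 0. Ddx6 RNA was thus at no point lower in the libraries labelled Ddx6-KO, and a level over the whole gene cannot show a small edit at the target of the guide. Marker sums of other cell types were small in every library (endothelium 1.47 to 7.58, epithelium 1.03 to 4.01, macrophage 5.66 to 11.2 and muscle 3.20 to 9.21 FPKM), against 1013 to 1698 FPKM for 16 preadipocyte and adipocyte markers. The last sum hides differences between the lines. At an adjusted p under 0.05 (limma), 3 of the 16 markers were higher and 8 lower in Ddx6-KO at day 2 (18.75% and 50%, against 10.4% and 8.58% of all tested genes). At day 0, 4 were higher and 5 lower (25% and 31.25%, against 6.55% and 4.81%). The muscle sum was 7.76 to 9.21 FPKM in Ddx6-KO and 3.20 to 4.92 FPKM in TOM libraries. The endothelium sum of 6 markers, 1 of them tested, was highest at day 2 in Ddx6-KO libraries, with 3.57 and 7.58 FPKM, against 1.47 to 2.89 FPKM in the other 6 libraries. Its tested marker Pecam1 had 2.54 and 3.41 FPKM in Ddx6-KO and 0.124 and 0.780 FPKM in TOM libraries at day 2 (log2 difference 1.48, SE 0.34, adjusted p = 0.0235, limma), while Cdh5 stayed at 0.217 FPKM or less throughout. The endothelium sum thus rose with time in Ddx6-KO libraries, as the member median did. The muscle sum did not, with 7.76 and 7.81 FPKM at day 2 and 8.02 and 9.21 FPKM at day 0. The macrophage sum was lower there at day 2 (7.27 and 6.41 FPKM) than at day 0 (11.2 and 9.71 FPKM). The part of such differences in the members' change was not tested.

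Of the 182 members, 139 reached 1 FPKM in at least 2 libraries and were tested, 101 of them at 1 FPKM or more in every library. The other 43 were not tested, and 7 of those (Zfp781, Zfp965, Zfp966, Zfp967, Zfp968, Zfp969 and Zfp989) were listed at 0 throughout. The filter let 6 members through on exactly 2 libraries, Zfp628, Zfp775, Zfp784, Zfp791, Zfp947 and Zfp972, and a gene that passes through the group where it is high had to differ. The median member stood at 4.11 and 4.06 FPKM in Ddx6-KO libraries at day 2 and at 2.59 and 2.77 FPKM in those at day 0, without overlap. In TOM libraries it stood at 3.12 and 3.15 FPKM at day 2 and at 2.65 and 2.93 FPKM at day 0. The median of all tested protein-coding genes lay between 5.73 and 6.24 FPKM in the 8 libraries. Summed over the tested members, FPKM came to 854 and 764 in Ddx6-KO libraries at day 2 and 534 and 556 at day 0, and to 642 and 624 in TOM libraries at day 2 and 556 and 616 at day 0. Total FPKM over all genes differed too, with 478344 and 509236 in Ddx6-KO day 0 libraries, against 637459 and 698063 in the day 2 ones. Of protein-coding FPKM, the members made up 0.295% in Ddx6-KO day 2 library 1 but 0.197% in library 2. The shares in Ddx6-KO day 0 libraries, 0.232% and 0.216%, lay between these. TOM shares ran from 0.230% (day 0 library 2) to 0.296% (day 2 library 1). By share, the members thus did not rise in both Ddx6-KO day 2 libraries. Fewer cells of a type and less RNA per cell cannot be told apart in such bulk samples.

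**Figure D1:**
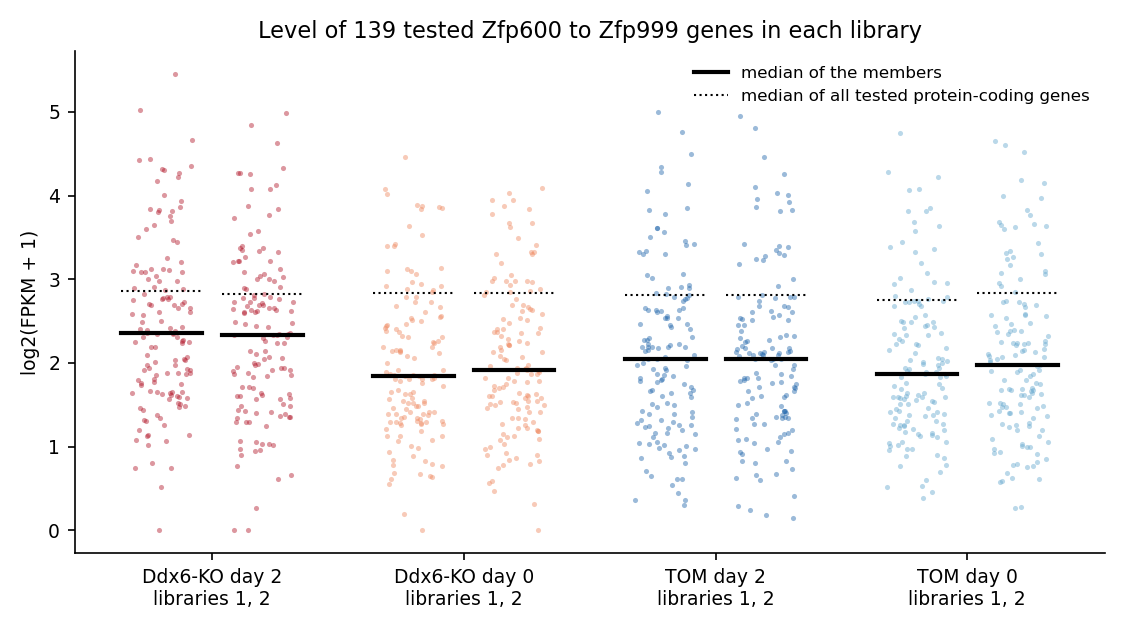
Each point is 1 of the 139 tested members in 1 library, as log2(FPKM + 1), with the member median as a thick line and the median of all tested protein-coding genes dotted. Member medians of 4.11 and 4.06 FPKM in the Ddx6-KO day 2 libraries stand above those of the other 6 libraries (2.59 to 3.15 FPKM).

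The most abundant members by mean FPKM over all libraries were Zfp740 (23.5), Zfp644 (22.1), Zfp970 (20.4), Zfp638 (17.3) and Zfp655 (15.7). Zfp638, a cofactor of C/EBP factors in adipocyte differentiation that also takes part in silencing retroviral DNA, had 20.7 and 19.1 FPKM in Ddx6-KO libraries at day 2 and 15.3 and 15.4 at day 0. In TOM libraries it had 18.5 and 16.2 FPKM at day 2 and 15.7 and 17.2 at day 0, and it was called in no comparison. Zfp740 ranged from 16 to 29.8 FPKM and Zfp655 from 11.2 to 19.4 FPKM over the 8 libraries, also without a call. Zfp809, which silences retroviruses that use a proline tRNA as primer, by way of Trim28, ranged from 3.78 to 7.48 FPKM and was not called.

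Over the 5 comparisons, 28 of the 139 tested members were called at least once. The other 111 had mean levels from 0.76 to 23.5 FPKM, with a median of 2.90 FPKM. Among them, Zfp746 (PARIS), a repressor of the mitochondrial coactivator gene Ppargc1a, had 6.92 and 5.63 FPKM in Ddx6-KO libraries at day 2 and 3.00 and 3.57 FPKM at day 0, and 3.96 and 4.84 FPKM in TOM libraries at day 2 and 2.95 and 2.19 FPKM at day 0. In both lines its day 2 values exceeded its day 0 values, short of the threshold. Zfp703, a repressor of the NET family, had 6.46 and 3.92 FPKM in Ddx6-KO libraries at day 2 and 6.38 and 6.26 FPKM at day 0, and 2.83 and 2.07 FPKM in TOM libraries at day 2 and 1.07 and 3.71 FPKM at day 0. Every Ddx6-KO value of Zfp703 exceeded every TOM value, again without a call. The 43 untested members reached 2.05 FPKM at most, in a single library (Zfp941, Ddx6-KO day 2 library 2), and their median mean level was 0.22 FPKM.

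In Ddx6-KO libraries, 12 of the 139 tested members (8.63%) passed the test upward at day 2 against day 0 and none downward, at an adjusted p under 0.05 from limma over all 15811 tested genes. At an unadjusted p under 0.05, 36 were higher and 0 lower. Of all tested genes, 4.80% were higher and 5.85% lower in the same comparison. Zfp970, Zfp791, Zfp963, Zfp932 and Zfp658 showed the largest differences, all 5 with a KRAB pattern. Called members were named by rule only where the 2 groups did not overlap, so lack of overlap in them is no support. The median log2 difference over the members was 0.32, against 0.05 over tested protein-coding genes, and 117 members (84.2%) lay above 0. Both day 2 libraries exceeded both day 0 libraries in 74 members (53.2%), against 30.9% of all tested genes, and the reverse held in 5 members (3.60%), against 23.6%. All differences here are on the log2(FPKM + 1) scale, which understates the change of genes with low values.

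Zfp970, a KRAB gene of 14 fingers on chromosome 2 (chr2:177464733-177478129, plus strand), had 43.0 and 30.7 FPKM in Ddx6-KO libraries at day 2, against 7.76 and 9.02 FPKM at day 0. The groups did not overlap, and the log2 difference of 2.00 (SE 0.28, adjusted p = 0.00524, limma) was the largest among the called members. In TOM libraries it had 19.3 and 13.1 FPKM at day 2 and 16 and 24.2 at day 0, which overlapped. It shared 19.4% of its 100-base stretches with Gm14288, a close copy, so its own part of these reads is uncertain.

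Zfp791 (chr8:85108553-85123095, minus strand), with a KRAB domain and 15 fingers, had 7.52 and 5.23 FPKM in Ddx6-KO libraries at day 2, against 0.856 and 0.969 FPKM at day 0, a log2 difference of 1.93 (SE 0.29). It stayed low in TOM libraries, at 0.284 and 0.514 FPKM at day 2 and 0.429 and 0.205 at day 0. The Ddx6-KO day 2 libraries alone passed 1 FPKM, and the gene passed the filter only through them, so its call had to favour that group and is no support; without it 11 members were called. Its approximate fragments ran from 1.99 to 37.7 per library, and the noncoding gene Gm45317 overlaps it on the other strand.

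Zfp963, a KRAB gene of chromosome 8, had 8.58 and 5.16 FPKM in Ddx6-KO libraries at day 2, against 1.18 and 1.82 FPKM at day 0 (log2 difference 1.63, SE 0.30, adjusted p = 0.0161, limma). Zfp932, which with its relative Gm15446 represses endogenous retroviruses in mouse embryonic stem cells, had 4.98 and 7.25 FPKM at day 2, against 1.91 and 0.905 FPKM at day 0 (log2 difference 1.58, SE 0.35, adjusted p = 0.0311). Neither gene overlapped between the days. Both have close copies, Zfp963 sharing 38% of its stretches with Gm20422 and Zfp932 22.1% with Gm15446, which leaves their values uncertain.

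Zfp658, a KRAB gene with 21 fingers, had 5.09 and 6.92 FPKM in Ddx6-KO libraries at day 2, against 1.53 and 1.34 FPKM at day 0 (log2 difference 1.51, SE 0.24, adjusted p = 0.0097, limma). Zfp950, a KRAB gene of 17 fingers within which Grk5 lies on the other strand, had 24.3 and 18.3 FPKM at day 2, against 7.69 and 6.22 FPKM at day 0 (1.48, SE 0.25, adjusted p = 0.0111). Zfp629, which has 19 fingers and no KRAB pattern, had 5.45 and 7.05 FPKM at day 2, against 1.76 and 2.2 FPKM at day 0 (1.28, SE 0.27, adjusted p = 0.0268). Every day 2 library exceeded every day 0 library for these 3 genes.

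Zfp644, a partner of the histone methyltransferases G9a and GLP, had 31.6 and 23.8 FPKM in Ddx6-KO libraries at day 2, against 10.5 and 11.7 FPKM at day 0 (log2 difference 1.23, SE 0.20, adjusted p = 0.0107, limma). The neighbours Zfp943 and Zfp942, which start head to head on chromosome 17, were both higher. Zfp943 had 13 and 8.34 FPKM at day 2, against 3.71 and 4.57 FPKM at day 0 (1.16, SE 0.24, adjusted p = 0.0257), and Zfp942 had 12 and 12.3 FPKM, against 5.11 and 5.37 FPKM (1.08, SE 0.21, adjusted p = 0.0201). Zfp944, in the same cluster, had 5.62 and 5.84 FPKM, against 2.60 and 1.90 FPKM, with a log2 difference of 1.06. Zfp623, a gene of 12 fingers with no KRAB pattern, had 7.57 and 7.34 FPKM, against 3.34 and 3.25 FPKM, with a log2 difference of 0.98. None of these 5 genes overlapped between the days.

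**Figure D2:**
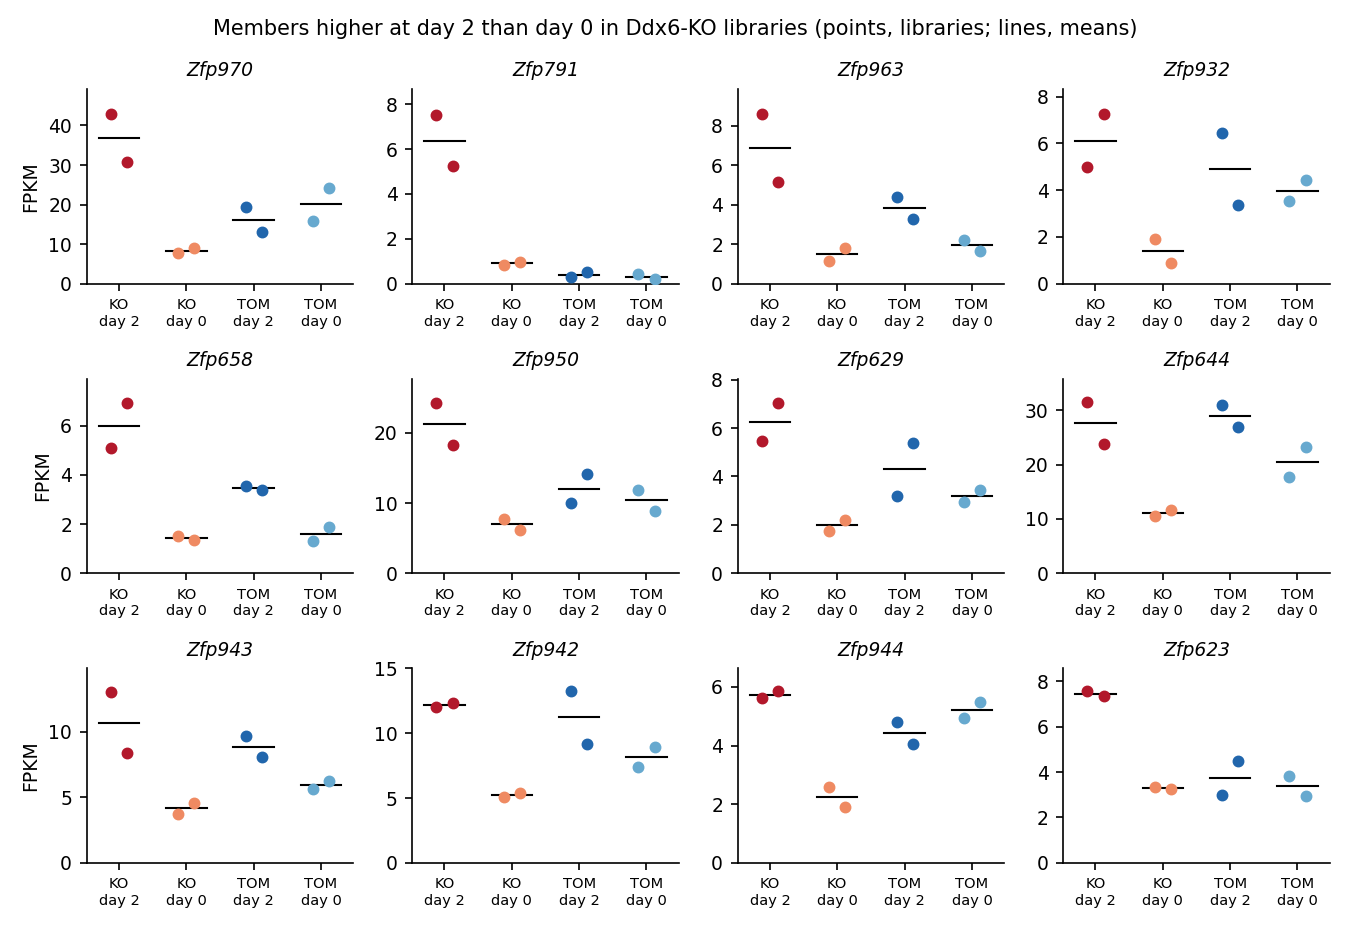
FPKM of the 12 members called higher at day 2 than at day 0 in Ddx6-KO libraries, with libraries as points and group means as lines, and an axis from 0 of its own for each gene. The Ddx6-KO day 2 points stand above the Ddx6-KO day 0 points in all 12 panels, while TOM levels differ from gene to gene, as in Zfp791, below 1 FPKM, and Zfp644, between 17.7 and 31.0 FPKM.

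The 12 calls leaned on single libraries: with the first Ddx6-KO day 0 library left out 0 remained (21 members at an unadjusted p under 0.05, limma), and with the second 1 (Zfp970). With the first Ddx6-KO day 2 library left out 3 remained (Zfp658, Zfp791 and Zfp970), and with the second 7. The family median changed with the scale: it was 0.00 after rescaling to TPM, where the protein-coding median was -0.33 and 8 members were called higher, and it turned to -0.01 after rescaling over protein-coding genes, where the protein-coding median was -0.32 and 3 members (Zfp658, Zfp791 and Zfp970) were called higher. Relative to the protein-coding median, the member median was 0.28 higher as reported and between 0.15 and 0.49 higher over the 22 alternative settings. Settings that change the test alone, or leave out TOM libraries, leave both medians as they were and are no support.

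**Figure D3:**
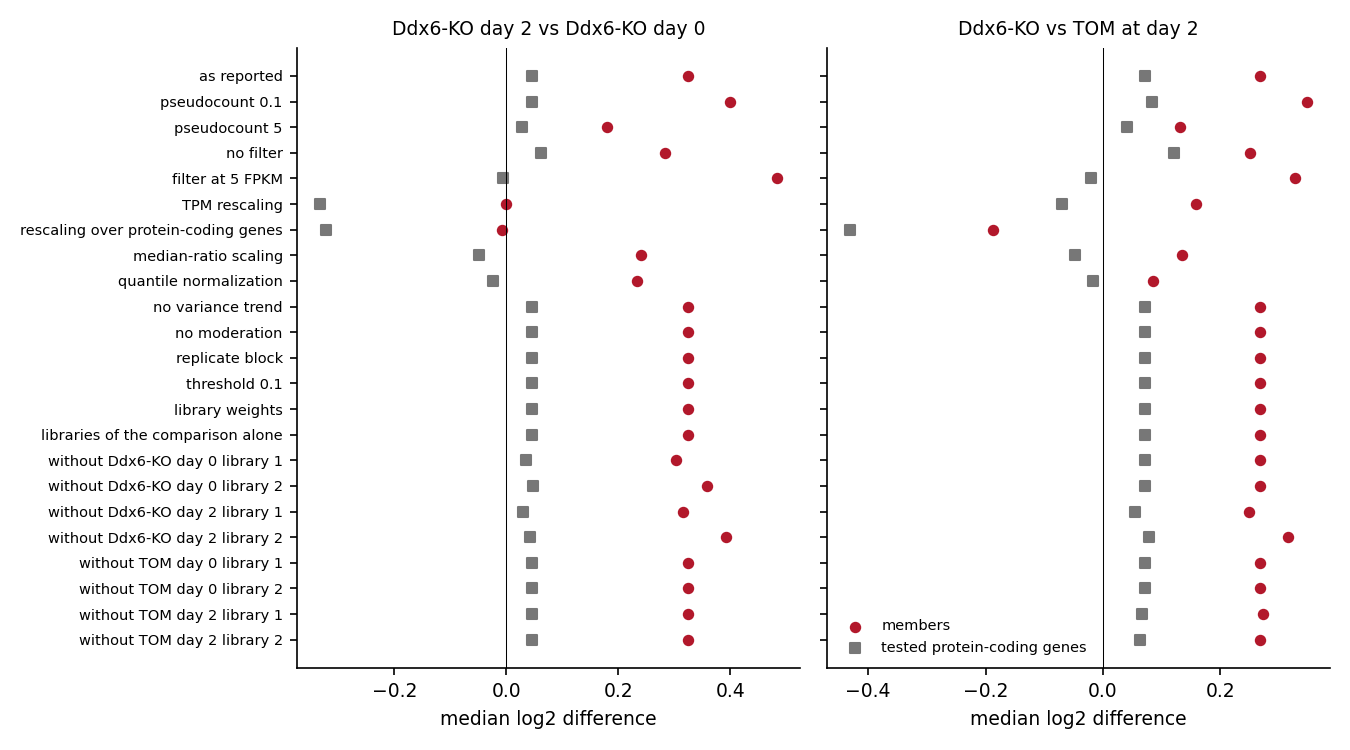
Median log2 difference of the tested members (circles) and of all tested protein-coding genes (squares) as reported and under each alternative setting, for Ddx6-KO day 2 against day 0 and for Ddx6-KO against TOM at day 2. Members lie right of the protein-coding median at each setting, but settings that change the test alone, or leave out libraries outside the comparison, cannot move these medians. Against 0 the members are at 0.00 and -0.01 after the TPM and protein-coding rescalings in the first panel. In the second they are at -0.19 after the rescaling over protein-coding genes.

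Among genes of like level the members also stood higher as a description. Of the 117 members with a mean of 1 to 10 FPKM, 84.6% lay above 0 and 7.69% were called higher, against 54.4% and 3.80% of the 6549 other protein-coding genes in that range. Without any filter, 175 members had a value above 0 in at least 1 library, 142 lay above 0 in this comparison and 9 were called higher, and the median was 0.28, against 0.06 for protein-coding genes.

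TOM cells gave few calls in the family. At day 2 against day 0, 3 members (2.16%) were higher and 1 (0.719%) was lower, against 3.40% higher and 3.74% lower of all tested genes. The median log2 difference of the members was 0.08, with 78 of 139 above 0, against 0.03 for protein-coding genes. Zfp688, a short KRAB gene with 2 fingers, had 6.60 and 9.68 FPKM in TOM libraries at day 2, against 2.75 and 1.39 FPKM at day 0 (1.59, SE 0.30, adjusted p = 0.0205, limma). Zfp706, which restrains Klf4 in mouse embryonic stem cells, had 9.08 and 8.81 FPKM at day 2, against 4.62 and 3.73 FPKM at day 0 (0.95, SE 0.18, adjusted p = 0.0217). Zfp948 had 21.5 and 21.1 FPKM at day 2, against 10.9 and 11.9 FPKM at day 0 (0.85, SE 0.16, adjusted p = 0.0182). These 3 genes were higher in both day 2 libraries than in both day 0 libraries.

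Zfp827, which in human cells recruits the NuRD complex to telomeres, was the member that fell: it had 2.12 and 2.00 FPKM in TOM libraries at day 2, against 4.38 and 8.60 FPKM at day 0 (log2 difference -1.23, SE 0.29, adjusted p = 0.0468, limma). The groups did not overlap, but the day 0 libraries lay far apart. None of the 4 calls remained with the second TOM day 0 library or either TOM day 2 library left out, or with the TOM libraries fitted alone, where 11 to 15 members had an unadjusted p under 0.05 (limma). Zfp948 alone remained with either Ddx6-KO day 0 library left out, and Zfp688 and Zfp827 with the first TOM day 0 library left out. After rescaling over protein-coding genes the split was 1 higher and 0 lower, and after TPM rescaling 1 and 1.

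**Figure D4:**
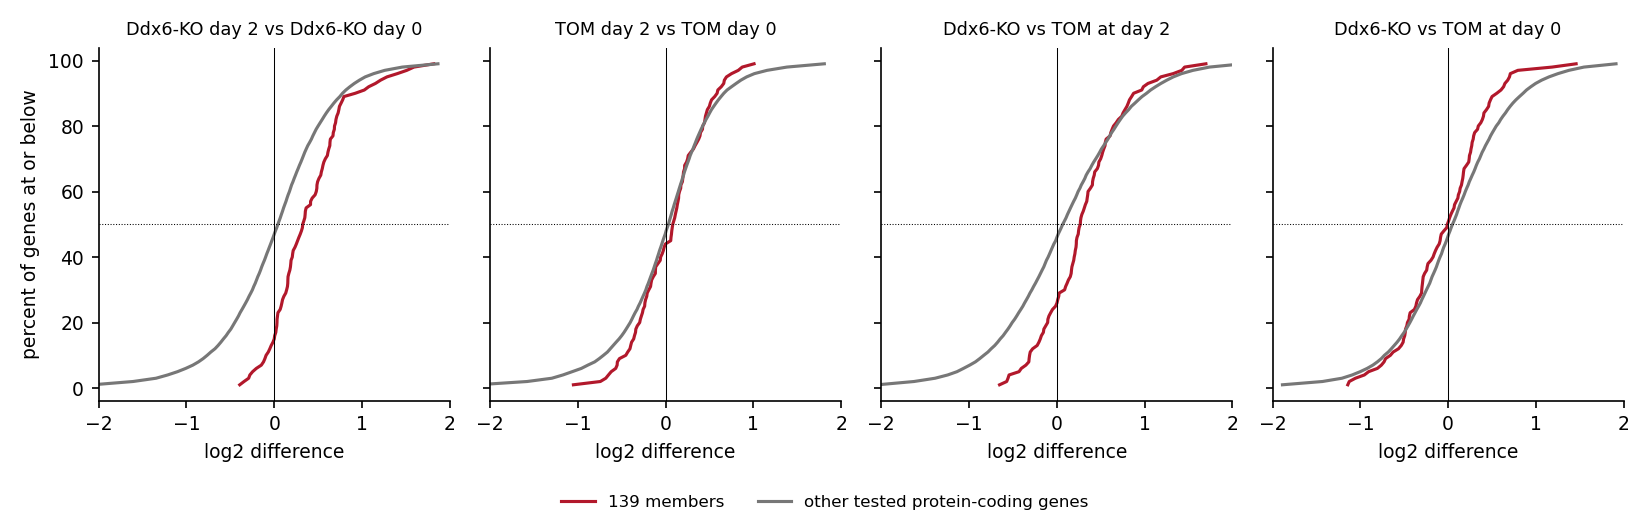
Cumulative share of genes, in percent, at or below each log2 difference for the 139 tested members (red) and the other tested protein-coding genes (gray) in 4 comparisons. In Ddx6-KO day 2 against day 0 the member curve crosses 50% at 0.32, in TOM day 2 against day 0 at 0.08, in Ddx6-KO against TOM at day 2 at 0.27 and at day 0 at -0.01. After the rescaling over protein-coding genes the first median turns to -0.01 and the third to -0.19, where the protein-coding medians were -0.32 and -0.43.

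Between the lines at day 2, 13 members (9.35%) were higher in Ddx6-KO than in TOM libraries and 2 (1.44%) were lower, against 10.4% and 8.58% of all tested genes. The share called higher was thus near that of all genes, and the share called lower was below it. The median log2 difference of the members was 0.27, against 0.07 for protein-coding genes, with 103 of 139 above 0. Both Ddx6-KO libraries exceeded both TOM libraries in 64 members (46.0%), against 33.2% of all tested genes, and the reverse held in 15 members (10.8%), against 24.9%. This comparison uses the same Ddx6-KO day 2 libraries as the change with time above.

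Zfp791 had 7.52 and 5.23 FPKM in Ddx6-KO libraries at day 2, against 0.284 and 0.514 FPKM in TOM libraries (log2 difference 2.39, SE 0.29), with the same limit that the filter let it through on the Ddx6-KO day 2 libraries alone. Zfp608, which represses the Rag genes in mouse thymocytes, had 13.3 and 9.39 FPKM, against 2.53 and 2.35 FPKM (1.83, SE 0.25, adjusted p = 0.00401, limma). Both were separated without overlap, and they were the 2 calls of any member in any comparison that held in every alternative setting, which for Zfp791 is no support, given the filter. Zfp608 is the single member on chromosome 18, where the other 316 tested protein-coding genes had a median log2 difference of 0.86 at day 2 and 0.85 at day 0, against 0.05 and 0.03 for the 11646 on all other chromosomes, members left out, and the part of the chromosome in its level was not tested.

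Zfp687, in human cells a member of a complex with ZMYND8, had 20.5 and 13.4 FPKM in Ddx6-KO libraries at day 2, against 5.78 and 4.81 FPKM in TOM libraries (log2 difference 1.49, SE 0.32, adjusted p = 0.0193, limma). Pi4kb overlaps it on the other strand. Zfp940, a KRAB gene, had 2.94 and 1.55 FPKM, against 0.229 and 0.103 FPKM (1.44, SE 0.31, adjusted p = 0.019), with an estimate as low as 0.755 fragments behind a TOM value. Zfp618, a partner of Uhrf2, had 2.62 and 3.40 FPKM, against 0.282 and 0.753 FPKM (1.41, SE 0.30, adjusted p = 0.0179). All Ddx6-KO values exceeded all TOM values here, at low levels for the last 2 genes.

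Zfp827 had 5.74 and 6.11 FPKM in Ddx6-KO libraries at day 2, against 2.12 and 2.00 FPKM in TOM libraries (log2 difference 1.18, SE 0.29, adjusted p = 0.0296, limma). Zfp830, a protein of mRNA splicing, had 13.1 and 12.6 FPKM, against 4.82 and 5.90 FPKM (1.13, SE 0.18, adjusted p = 0.00705). Zfp970 had 43.0 and 30.7 FPKM, against 19.3 and 13.1 FPKM (1.14, SE 0.28, adjusted p = 0.0288). The line groups did not overlap for these genes. Zfp992 (3.97 and 2.96 FPKM, against 1.30 and 1.17 FPKM) and Zfp937 (4.33 and 4.03 FPKM, against 1.69 and 1.53 FPKM) each had a log2 difference of 0.99, with adjusted p-values of 0.0382 and 0.0291, and share 28.6% and 10.9% of their stretches with Zfp991 and Zfp442. Zfp820, Zfp623 and Zfp622, a factor of large ribosomal subunit assembly, were called with log2 differences of 0.98, 0.86 and 0.81.

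Zfp948 was lower in Ddx6-KO than in TOM libraries at day 2, with 15.0 and 13.6 FPKM, against 21.5 and 21.1 FPKM (log2 difference -0.54, SE 0.16, adjusted p = 0.0494, limma). Zfp972 was listed at 0 FPKM in both Ddx6-KO libraries at day 2 and in both at day 0, against 1.01 and 1.82 FPKM in TOM libraries at day 2 and 0.705 and 0.723 at day 0. It reached 1 FPKM in the TOM day 2 libraries alone and passed the filter only through them, so its call as lower at day 2 had to follow and is no support, and no fold can be given against values listed at 0. Without Zfp791 and Zfp972 the calls at day 2 were 12 higher and 1 lower. Its TOM values rest on at most 6.73 fragments per library, its annotated coding sequence holds a KRAB pattern but no finger, and it shares 18% of its stretches with Gm15280.

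Of the 15 calls at day 2, between 3 and 6 remained with any single day 2 library or Ddx6-KO day 0 library left out, and 10 with either TOM day 0 library left out. Zfp608 and Zfp791 alone remained when the day 2 libraries were fitted without those of day 0. The split of 13 higher and 2 lower became 7 and 2 after TPM rescaling or quantile normalization. Of all 15811 tested genes, 1062 were higher and 1585 lower after the first, and 1361 and 1342 after the second. Rescaling over protein-coding genes gave 3 of 139 members higher and 7 lower, against 526 and 3006 of all tested genes. The member median there was -0.19 and the protein-coding median -0.43.

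At day 0, 2 members (1.44%) were higher in Ddx6-KO than in TOM libraries and 4 (2.88%) were lower, against 6.55% and 4.81% of all tested genes. The member median was -0.01 and 69 of 139 lay above 0, against 0.05 for the median of protein-coding genes. Zfp609, a relative of Zfp608 that binds the cohesin loader Nipbl, had 13.3 and 11.8 FPKM in Ddx6-KO libraries, against 1.98 and 5.37 FPKM in TOM libraries (log2 difference 1.64, SE 0.40, adjusted p = 0.0403, limma). Zfp608 had 6.72 and 7.31 FPKM, against 2.01 and 3.21 FPKM (1.17, SE 0.25, adjusted p = 0.0267). The lines did not overlap for these relatives, and the TOM libraries of Zfp609 were far apart.

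Zfp931, a KRAB gene of 7 fingers in the same cluster as Zfp970, had 1.73 and 2.05 FPKM in Ddx6-KO libraries at day 0, against 5.70 and 5.64 FPKM in TOM libraries (log2 difference -1.21, SE 0.28, adjusted p = 0.0365, limma). Zfp970 had 7.76 and 9.02 FPKM, against 16 and 24.2 FPKM (-1.14, SE 0.28, adjusted p = 0.0396). Zfp944 had 2.60 and 1.90 FPKM, against 4.95 and 5.49 FPKM (-0.94, SE 0.21, adjusted p = 0.0301). All 3 were lower in both Ddx6-KO libraries. Zfp644 had 10.5 and 11.7 FPKM, against 17.7 and 23.3 FPKM (-0.82, SE 0.20, adjusted p = 0.0431). Since Zfp970, Zfp944 and Zfp644 are measured in the same Ddx6-KO day 0 libraries here and in the change with time, a low value in those libraries enters both. None of the 6 calls remained with either Ddx6-KO day 0 library or the first TOM day 0 library left out, or after rescaling over protein-coding genes, where 12 to 17 members had an unadjusted p under 0.05 (limma). With the second TOM day 0 library left out, Zfp608 and Zfp609 remained.

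The change with time differed between the lines in 1 member, Zfp970, with a difference of changes of 2.28 on the log2 scale (Ddx6-KO change minus TOM change, SE 0.39, adjusted p = 0.0214, limma). Of all tested genes, 2.02% passed the same test upward and 2.17% downward. The median difference of changes over the members was 0.27, against 0.01 for protein-coding genes, with 105 of 139 above 0. It was -0.15 after rescaling over protein-coding genes, where the protein-coding median was -0.50 and no member was called (11 at an unadjusted p under 0.05). The call of Zfp970 was lost with any 1 of 5 libraries left out (either of Ddx6-KO day 0, the first of Ddx6-KO day 2, the second of TOM day 0 and the second of TOM day 2), where the difference of Zfp970 ran from 2.00 to 2.38.

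Within the family, genes with and without a KRAB pattern were set side by side. At day 0, the 97 tested members with the pattern had a median log2 difference between Ddx6-KO and TOM of -0.16, with 41 above 0, 0 called higher and 3 lower, and the 42 without had a median of 0.18, with 28 above 0, 2 called higher and 1 lower. With time in Ddx6-KO libraries the medians were 0.35 with the pattern (82 above 0, 9 called) and 0.26 without (35 above 0, 3 called). At day 2 between the lines they were 0.25 (6 higher and 2 lower) and 0.35 (7 higher and 0 lower), so the class with the pattern had the lower median against TOM on both days and the higher one in the change with time, as a description with no test. Beside these counts, 6.55% of all tested genes were higher and 4.81% lower between the lines at day 0, and 10.4% and 8.58% at day 2. With time in Ddx6-KO libraries 4.80% were higher and 5.85% lower. The 2 KRAB classes also differ in base composition, with a median coding GC content of 40.8% with the pattern and 57.1% without. Split by GC instead, the 86 members below 45% had a day 0 median of -0.21 and a median change in Ddx6-KO of 0.36. The 53 others had 0.17 and 0.22. Outside the family, the 1443 tested coding genes below 45% had 0.05 and 0.03. The 131 other tested coding genes with a KRAB pattern and 3 or more fingers had -0.02 and 0.29. Members were not split by both traits at once, and the part of either was not tested.

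The change in Ddx6-KO libraries was also split by shared stretches, overlapping genes and level, as a description. The 28 members sharing at least 10% of their stretches had a median of 0.22 (3 called), and the 111 below had 0.35 (9 called). In the 65 members with no overlapping gene on either strand and little sharing, the median was 0.35 with 5 called higher and none lower, and at day 2 between the lines it was 0.27 with 5 higher and 1 lower. By level, the median change in Ddx6-KO was 0.14 in the 40 members with a mean under 2 FPKM (0 called), 0.42 in the 56 between 2 and 5 FPKM (7 called) and 0.41 in the 43 at 5 FPKM or more (5 called). The lowest median was thus that of the members with low values, which the scale compresses. Shares called over all tested genes were 4.80% higher and 5.85% lower with time in Ddx6-KO libraries. Between the lines at day 2 they were 10.4% and 8.58%.

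Most members lie in tandem clusters, and 83 of the 139 tested ones in a cluster of 4 or more members with gaps under 1 Mb. The largest tested cluster, on chromosome 17 (chr17:21383748-22867134), holds 14 members, all tested, among them Zfp942, Zfp943, Zfp944 and Zfp948. In Ddx6-KO libraries its median change between day 2 and day 0 was 0.64, with 13 of 14 above 0 and 3 called. In TOM libraries it was -0.17, with 5 above 0 and 1 called. Over all tested genes, 4.80% were called higher and 5.85% lower in Ddx6-KO libraries, and 3.40% and 3.74% in TOM libraries. In the cluster on chromosome 13 (chr13:67038596-67687071), all 9 tested members of 10 lay above 0 in Ddx6-KO libraries (median 0.46), against 4 in TOM libraries (median -0.03), with no call in either. The cluster on chromosome 4 (chr4:145510759-147848366) gave the same picture in its 9 tested members of 17, with 9 above 0 in Ddx6-KO (median 0.35) and 5 in TOM libraries (median 0.00).

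Between the lines at day 0, these clusters lay on the lower side. On chromosome 17, 2 of 14 members were above 0 (median -0.49), on chromosome 13 it was 1 of 9 (median -0.37), and on chromosome 4 it was 3 of 9 (median -0.26). On chromosome 2 (chr2:174643534-178078476), where 4 of 11 members were tested, it was 0 of 4 (median -0.96), with Zfp931 and Zfp970 called. The share called lower over all tested genes was 4.81%. Beside this, the median of other tested protein-coding genes at day 0 was -0.22 on chromosome 17, -0.15 on chromosome 13, -0.08 on chromosome 2 and 0.13 on chromosome 4. For the change in Ddx6-KO these chromosome medians ran from 0.03 to 0.08. The same Ddx6-KO day 0 libraries enter the day 0 comparison and the change with time, so low cluster values in them enter both. Between the lines at day 2, the cluster medians were 0.17 on chromosome 17 (9 of 14 above 0) and 0.16 on chromosome 13 (6 of 9). They were 0.35 on chromosome 4 (9 of 9) and -0.09 on chromosome 2 (2 of 4). Inside the chromosome 17 cluster, 6 coding genes that are no members, each with 3 or more fingers, had a median change of 0.35 in Ddx6-KO. In TOM libraries it was 0.22. The 14 non-members inside the chromosome 13 cluster had 0.34 and 0.23, the 14 on chromosome 2 had 0.14 and -0.15, and the 2 on chromosome 4 had 0.55 and -0.24. Between the lines at day 0, these non-members had medians of -0.41 on chromosome 17 (2 of 6 above 0) and -0.18 on chromosome 13 (4 of 14). On chromosome 2 it was -0.46 (2 of 14) and on chromosome 4 0.24 (2 of 2). Clustered genes share sequence and neighbours, so they are not independent of each other.

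**Figure D5:**
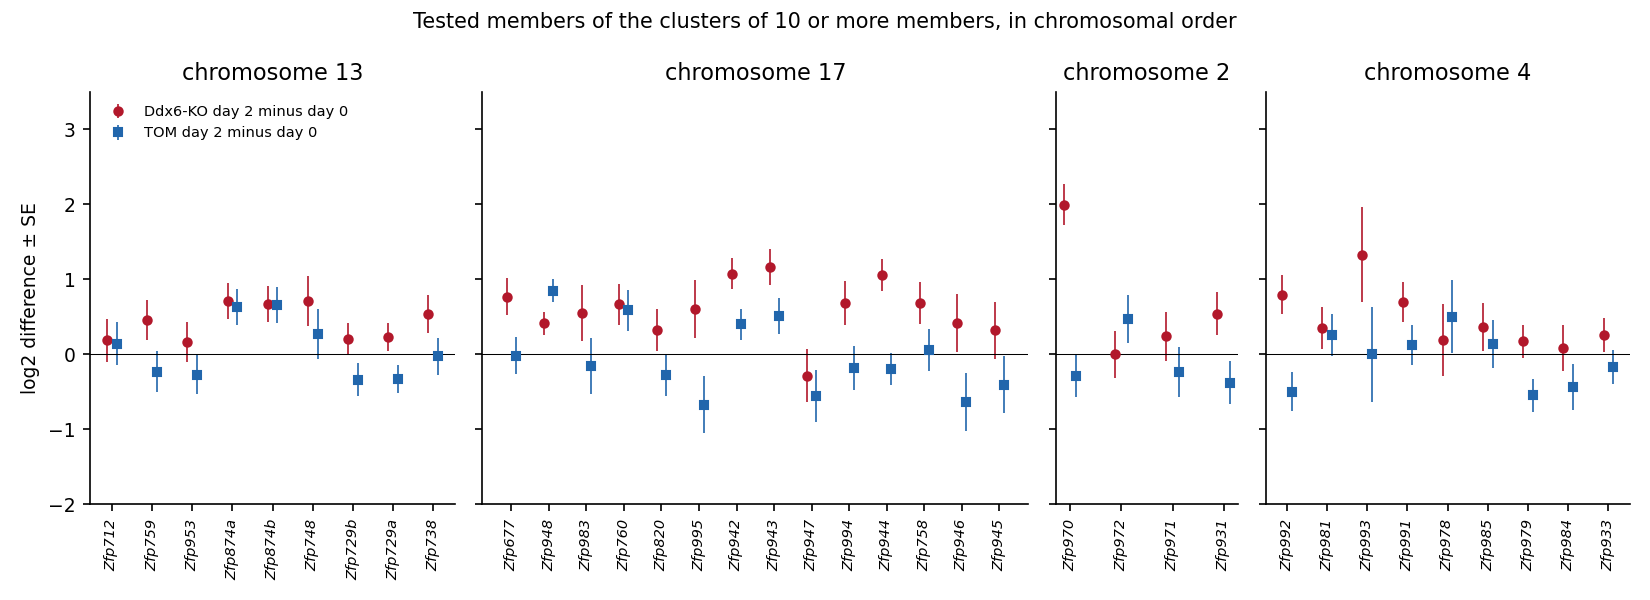
Log2 difference of day 2 minus day 0 in Ddx6-KO (circles) and TOM (squares) libraries, with SE bars, for the tested members of the 4 clusters of 10 or more members, in chromosomal order. In the chromosome 17 cluster, 13 of 14 Ddx6-KO points lie above 0, against 5 of 14 TOM points, before any rescaling.

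Zinc-finger genes outside the symbol range gave values much like those of the members. Of 186 tested Zfp genes with lower numbers, 11 (5.91%) were higher and 1 (0.538%) lower at day 2 than at day 0 in Ddx6-KO libraries (median 0.26). At day 2 the counts against TOM were 22 higher (11.8%) and 7 lower (3.76%), with a median of 0.26. Of 131 other tested coding genes with a KRAB pattern and 3 or more fingers, 8 (6.11%) were higher and 0 lower with time in Ddx6-KO libraries (median 0.29). At day 2 against TOM they were 13 higher (9.92%) and 1 lower (0.763%), with a median of 0.25. Of all tested genes, 4.80% were higher and 5.85% lower with time, and 10.4% and 8.58% between the lines at day 2. The shares called higher were thus near those of all genes, and the shares called lower were below them. The pattern of the Zfp600 to Zfp999 genes was thus not shown to be particular to them.

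Cofactors through which KRAB proteins silence chromatin were read from a list of 30 genes, 29 of them tested. In Ddx6-KO libraries at day 2 against day 0, 2 were higher (6.90%) and 0 lower, against 4.80% and 5.85% of all tested genes, with a median log2 difference of 0.25 over the list and 0.05 over protein-coding genes. Setdb1 had 19.7 and 19.1 FPKM at day 2, against 9.51 and 11.6 FPKM at day 0 (log2 difference 0.82, SE 0.16, adjusted p = 0.021, limma), and the NuRD remodeller Chd3 had 36.9 and 25.4 FPKM, against 12.9 and 15.8 FPKM (1.05, SE 0.26, adjusted p = 0.048). Trim28 had 34.0 and 47.2 FPKM at day 2 and 29.7 and 23.7 FPKM at day 0 and was not called. Between the lines, Ehmt2, which encodes G9a, was lower in Ddx6-KO at day 2 (23.6 and 19.7 FPKM, against 41.1 and 40.9 FPKM in TOM; log2 difference -0.90, SE 0.16, adjusted p = 0.00946) and at day 0 (19.7 and 20.3 FPKM, against 54.9 and 45.5 FPKM; -1.28, SE 0.16, adjusted p = 0.00355). Resf1 went the other way, with 70.2 and 67.3 FPKM against 27.4 and 27.1 FPKM at day 2 (1.30, SE 0.15, adjusted p = 0.00238, limma). At day 0 it had 52.2 and 49.4 FPKM, against 26.3 and 34.3 FPKM (0.74, SE 0.15, adjusted p = 0.025). Over the list, 3 cofactors were higher (Resf1, Morc3 and Chd3) and 3 lower (Ehmt2, Mbd3 and Fam208a) in Ddx6-KO at day 2. That was 10.3% each way, against 10.4% and 8.58% of all tested genes. At day 0, 2 were higher (Resf1 and Dnmt3a) and 1 lower (Ehmt2), or 6.90% and 3.45%, against 6.55% and 4.81%. These shares were near those of all genes. In TOM libraries, the day 2 counts against day 0 were 1 higher (Ehmt1) and 0 lower.

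Among 31 tested P-body genes, 1 was higher and 1 lower at day 2 than at day 0 in Ddx6-KO libraries (3.23% each way, below the 4.80% and 5.85% of all tested genes), with a median log2 difference of 0.18. Lsm4, of the ring that binds decapping targets, had 5.26 and 4.61 FPKM at day 2, against 17.8 and 16.4 FPKM at day 0 (log2 difference -1.61, SE 0.19, adjusted p = 0.00274, limma). Tnrc6a, the GW182 scaffold of miRNA silencing, had 15.7 and 14.5 FPKM, against 8.37 and 8.24 FPKM (0.79, SE 0.20, adjusted p = 0.0461). Neither gene overlapped between the days. Between the lines, 5 were higher and 3 lower in Ddx6-KO at day 2 (16.1% and 9.68%, against 10.4% and 8.58% of all tested genes), and 3 were higher and 0 lower at day 0 (9.68%, against 6.55% higher and 4.81% lower). In TOM libraries 2 were higher and 1 was lower at day 2 than at day 0 (6.45% and 3.23%, against 3.40% and 3.74%).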

How the data were processed

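RNA from 8 libraries, 2 per group, was sequenced as 100-base pairs on a HiScanSQ after TruSeq Stranded Total RNA preparation. The authors deposited FPKM per gene from Cufflinks 2.2.1, after TopHat2 2.1.0 alignment to GRCm38/mm10; the annotation release and the use of strand in counting are not given in the sources used here. Depth was estimated from the lowest nonzero FPKM values, scaled by transcript length, of genes with a single transcript. Columns of 3 libraries matched a group but no replicate, and library numbers follow column order.

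Symbols came from GENCODE M21 (45225 of 46073 identifiers). Zfp783 and Zfp939 are noncoding there and were left out. KRAB and finger patterns were searched in translated GENCODE coding sequences instead of RefSeq proteins. Log2(FPKM + 1) of the 15811 genes that reached 1 FPKM in 2 or more libraries was fitted with limma 3.58.1 (R 4.3.3), with 4 group means over 8 libraries and a variance trend; 5 comparisons were adjusted by Benjamini-Hochberg at 0.05, and the fit was tested on simulated data. Named are up to 10 called members per direction and comparison, taken from those whose libraries did not overlap between the 2 groups. Lack of overlap in these genes thus follows from the choice. The 5 most abundant members and members of a list of known roles are named as well. Called genes beyond these and the promoter words were chosen after their values were seen. Members and lists were chosen with earlier results of these data known. Alternatives were other pseudocounts (0.1, 5), filters, scalings, variance models, a threshold of 0.1, a replicate block, library weights and leaving out each library. Python 3.11.15 with pandas 2.3.3, numpy 2.4.6 and matplotlib 3.10.9 made tables and figures.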

Additional observations from a re-analysis of the deposited data

Results flagged for a closer look

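Zfp970 changed differently with time in the 2 lines, by the test of the difference itself: its change in Ddx6-KO libraries exceeded that in TOM libraries by 2.28 on the log2(FPKM + 1) scale (SE 0.39, adjusted p = 0.0214 from limma over 15811 genes). It stood at 43.0 and 30.7 FPKM in Ddx6-KO libraries at day 2 and 7.76 and 9.02 FPKM at day 0, and at 19.3 and 13.1 FPKM in TOM libraries at day 2 and 16 and 24.2 FPKM at day 0. The reads it shares with close copies such as Gm14288 (19.4% of its 100-base stretches) were not separated.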

How the results depend on the processing

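No called member changed sign under any of the alternatives run, though those that change the test alone could not change it. Of the 38 calls of members over the 5 comparisons, 2 held throughout (Ddx6-KO against TOM at day 2: Zfp608, and Zfp791, which passed the filter only through the group where it is high), and 325 of 829 alternative values missed the threshold. The cause of these losses was not tested, except that a group with a library left out keeps a single one, taken to vary as the libraries elsewhere do. Counts of called members moved as follows.

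For TOM day 2 against day 0 (4 as reported), no filter, TPM rescaling and no moderation each gave 2, rescaling over protein-coding genes 1, the 2 groups alone 0 (15 at an unadjusted p under 0.05, limma), and leaving out a library 0 to 3. For Ddx6-KO day 2 against day 0 (12 as reported), rescaling over protein-coding genes gave 3, no moderation 5, the 2 groups alone 4, and leaving out a library 0 to 12. For Ddx6-KO against TOM at day 0 (6 as reported), no filter and rescaling over protein-coding genes gave 0 (23 and 17 at an unadjusted p under 0.05), no variance trend 3, no moderation 2, a threshold of 0.1 10, the 2 groups alone 2, and leaving out a library 0 to 6. For Ddx6-KO against TOM at day 2 (15 as reported), no filter gave 7, TPM rescaling, quantile normalization and library weights each 9, the 2 groups alone 2, and leaving out a library 4 to 11. For the difference of changes (1 as reported), a pseudocount of 5 and no variance trend gave 2, no filter, rescaling over protein-coding genes and no moderation 0 (17, 11 and 16 at an unadjusted p under 0.05), a threshold of 0.1 4, and leaving out a library 0 to 2; its fit already uses all libraries, so the 2 groups alone were not run for it.

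Library numbers follow column order and are no established pairing. Deviations of same-numbered libraries correlated between -0.10 and 0.07, which cannot show whether the samples were paired in some other way. With a replicate block, the day 0 comparison of the lines kept 1 call, and the counts of the other comparisons stayed within 1.5 times those reported.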
